A study of Mus musculus with 12 samples.

Results

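The genes described here mark eosinophils, basophils and mast cells, the rare granulocytes of allergy and defence against worms, and were followed in mouse spleen during abdominal sepsis. They are 9 of the 19938 genes that the array annotation names with a single symbol: Ccr3, Il5ra, Epx, Prg2, Siglecf, Fcer1a, Ms4a2, Mcpt8 and Cpa3, each covered by 1 probe set. They were listed for what they encode, except that Ccr3 was picked because its log2 value was far lower on 4 of these same arrays, so its values are given as a description without a test. All mice were of strain C57BL/6. The spleens labelled septic TLR-deficient came from mice with Trifxmyd in their titles. Toll-like receptors (TLRs) signal through the adaptor proteins Trif and MyD88. These mice underwent colon ascendens stent peritonitis (CASP), an operation in which gut bacteria leak into the abdomen through a stent. Spleens labelled septic wildtype came from wildtype mice after the same operation, and those labelled untreated wildtype from wildtype mice without it, with a time of 0 h in most of their titles. Each group has 4 arrays, which the labels call biological replicates. The labels give no alleles, age, sex or time after the operation. Untreated mice are all wildtype, so genotype without sepsis was not measured.

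Eosinophils and basophils leave the bone marrow under the control of interleukin-5 and interleukin-3, are drawn into tissue by the eotaxin chemokines acting on CCR3, and carry granules of toxic proteins. Mast cells mature in tissue and, like basophils, bind IgE through the high-affinity receptor FcεRI and store proteases that are released when the receptor is crosslinked. All of these cells are scarce in a normal spleen, where B cells, T cells, red pulp macrophages and erythroid cells dominate. GATA transcription factors act in the development of each of these lineages.

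The upstream regions of the 3 genes whose values divide the arrays most clearly below are shown for their GATA motifs. RefSeq windows of GRCm38.p6, reaching from 250 bases before to 50 bases after the annotated start, were matched for 8 of the 9 genes (all but Prg2). The motif was searched on both strands in 4 spellings. The first was AGATAA, and the second differs from it in the last base, AGATAG. The remaining spellings begin with T, the one being TGATAA while the other is TGATAG. Matches are in capitals.
Ccr3, chr9:124021721-124022020, plus strand: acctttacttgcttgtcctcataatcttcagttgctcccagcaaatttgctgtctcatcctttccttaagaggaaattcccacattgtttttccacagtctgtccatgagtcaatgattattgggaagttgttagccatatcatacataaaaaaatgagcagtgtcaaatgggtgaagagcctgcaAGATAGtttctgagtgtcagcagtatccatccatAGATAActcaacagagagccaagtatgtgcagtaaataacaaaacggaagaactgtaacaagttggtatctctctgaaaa
Il5ra, chr6:106748988-106749287, minus strand: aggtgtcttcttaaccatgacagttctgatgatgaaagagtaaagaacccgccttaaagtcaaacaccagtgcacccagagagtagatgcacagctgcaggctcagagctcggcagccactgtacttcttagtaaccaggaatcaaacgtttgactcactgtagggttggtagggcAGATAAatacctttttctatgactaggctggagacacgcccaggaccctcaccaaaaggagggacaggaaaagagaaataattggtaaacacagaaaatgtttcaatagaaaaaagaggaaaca
Epx, chr11:87875487-87875786, minus strand: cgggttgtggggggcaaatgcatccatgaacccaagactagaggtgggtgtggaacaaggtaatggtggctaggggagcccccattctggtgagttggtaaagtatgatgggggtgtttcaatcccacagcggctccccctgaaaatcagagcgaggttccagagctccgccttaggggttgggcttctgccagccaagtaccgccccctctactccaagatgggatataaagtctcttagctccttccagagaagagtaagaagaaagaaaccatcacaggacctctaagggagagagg
The Ccr3 window holds matches at bases -64 to -59 and -30 to -25 from the start, and the Il5ra window at -74 to -69. The Epx window holds none. Of the 8 windows 6 hold at least 1 match, those of Siglecf, Fcer1a, Ms4a2 and Cpa3 included, against 29.8% of the 32851 windows in the table. A match describes these letters only and is not evidence of binding.

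Values are log2 expression values from RMA, which corrects background, equalises the arrays and summarises each probe set. The arrays did not group by label. Across genes, the closest array by correlation had the same label for 5 of 12 arrays, and for 12 of 12 it came from the same title block, a grouping by the running numbers in the titles (M5 to M7 with M16, M8 to M11, and M12 to M15) that was proposed with these values in view. The first block holds septic TLR-deficient replicates 1 to 3 and untreated replicate 4. The second holds septic TLR-deficient replicate 4 and septic wildtype replicates 1 to 3, and the last holds septic wildtype replicate 4 and untreated replicates 1 to 3. Whether labels of some arrays were shifted or exchanged was not tested. If they were, each labelled mean, difference and p-value below would describe other groups than its name says. Values are therefore given by label, with the tests, and by block, with no test. Transcripts of the sex chromosomes followed the blocks: Eif2s3y, a Y-linked gene, was at 7.21 to 7.95 on the 4 arrays of M12 to M15 and at 2.48 to 4.50 on the other 8, and Xist, expressed from the inactive X chromosome of females, at 3.73 to 4.33 and at 8.94 to 10.94. Both genes thus split the septic wildtype and the untreated labels, and sex cannot be told apart from the block M12 to M15. Ticam1, which encodes Trif, was at 5.80 to 5.93 on septic TLR-deficient, 5.64 to 6.22 on septic wildtype and 5.76 to 6.57 on untreated arrays. Myd88 was at 8.62 to 9.64, 6.48 to 9.20 and 8.87 to 9.75 in the same groups. As the labels give no deleted part, these levels do not check the genotype. Septic wildtype replicate 2 stands apart from every other array (r of 0.765 to 0.809 against 0.956 to 0.991 among the other 11), with a standard deviation over genes of 1.21 against 1.91 to 2.07. Dim genes read high on it: over 1027 olfactory receptor genes, not expected in spleen, its median log2 value was 4.39, against 2.93 to 3.19 on the other 11 arrays. Spleen markers were present on every array, with a mean log2 value of 7.95 to 10.34 over 6 of 7 B cell markers.

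Ccr3 encodes the eotaxin receptor of eosinophils and basophils. Its log2 values were 3.65, 4.22, 4.73 and 8.70 on septic TLR-deficient replicates 1 to 4, 8.19, 7.08, 8.52 and 7.81 on septic wildtype replicates 1 to 4, and 7.73, 7.50, 7.30 and 3.33 on untreated replicates 1 to 4. The values form a low set of 4 arrays and a high set of 8 that cut across the labels, and every pair of labelled groups overlaps. By block, Ccr3 ranged over 3.33 to 4.73 in M5 to M7 with M16, 7.08 to 8.70 in M8 to M11 and 7.30 to 7.81 in M12 to M15. The highest of the 4 low arrays (4.73) and the lowest of the others (7.08) are 2.35 log2 units apart. The range over 12 arrays was 5.37 log2 units, and 25 of all genes had a larger one. Ccr3 was picked for its low values on 4 of these arrays, so nothing is read from that rank.

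As labelled, Ccr3 averaged 5.32 ± 2.29 on septic TLR-deficient, 7.90 ± 0.62 on septic wildtype and 6.47 ± 2.10 on untreated arrays (SD, n = 4 each). In the order septic wildtype, untreated, septic TLR-deficient, neighbouring means lay closer together than the larger of their SDs. The septic TLR-deficient minus septic wildtype difference was -2.58, and it was -3.70 without septic TLR-deficient replicate 4. Between septic wildtype and untreated arrays it was 1.43, and 0.39 without untreated replicate 4. The difference of septic TLR-deficient minus untreated was -1.14, and -2.27 without septic TLR-deficient replicate 4. In bulk tissue, fewer cells of a type and less RNA per cell cannot be told apart.

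Il5ra encodes the ligand-binding chain of the interleukin-5 receptor, the survival receptor of eosinophils, also found on some B cells. Its log2 values were 5.10, 4.92, 4.80 and 6.60 on septic TLR-deficient replicates 1 to 4, 6.45, 5.51, 5.66 and 5.62 on septic wildtype, and 5.57, 6.22, 5.56 and 5.12 on untreated replicates 1 to 4. The 4 lowest values are those of M5 to M7 with M16, as for Ccr3, but over a much narrower range: 4.80 to 5.12, against 5.51 to 6.60 in M8 to M11 and 5.56 to 6.22 in M12 to M15. Ccr3 and Il5ra were the 2 of 9 members with every array of that block below all others, a pattern shown by 1.85% of all genes. Since the block was proposed with these values in view, and Ccr3 was picked on it, nothing is read from that count. Both stayed so after a further quantile normalization (2.49% of all genes), with arrays centred on their medians (1.33%) and without septic wildtype replicate 2 (5.07%). No member had that block wholly above the others (1.72% of genes, 2.18% without that array). None had M8 to M11 wholly below (2.12%, and 2.63%), or M12 to M15 wholly below (0.818%, and 1.03%) or above (0.757%, and 0.903%).

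**Figure D1:**
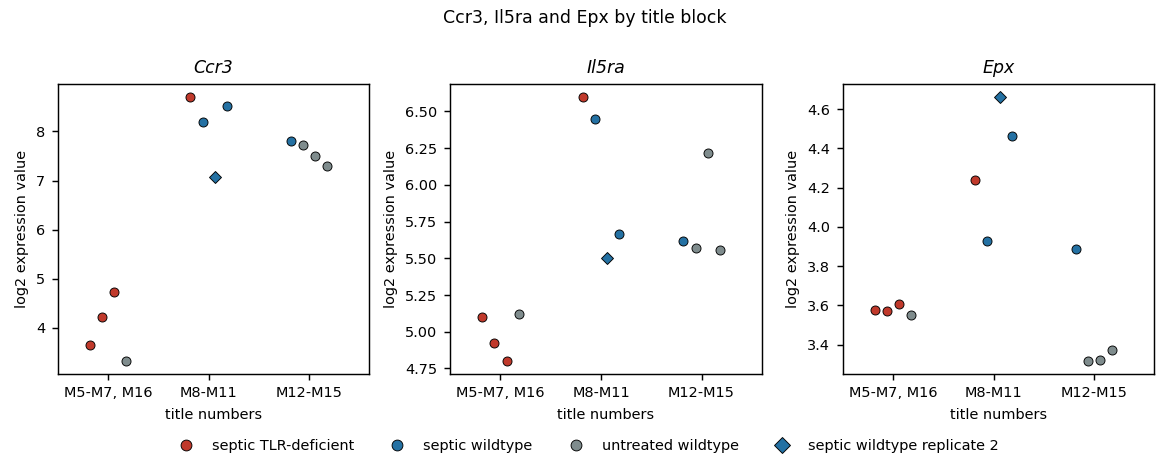
Log2 expression values of Ccr3, Il5ra and Epx by title block (horizontal axis), with points coloured by label and septic wildtype replicate 2 as a diamond. Ccr3 is at 3.33 to 4.73 on M5 to M7 and M16 and at 7.08 or more elsewhere, Il5ra is lowest on the same 4 arrays, and Epx is highest on M8 to M11.

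By label, Il5ra averaged 5.36 ± 0.84, 5.81 ± 0.43 and 5.61 ± 0.45 (SD, n = 4 each) on septic TLR-deficient, septic wildtype and untreated arrays. Ordered by mean, septic wildtype, untreated and septic TLR-deficient arrays each differed from the next by less than their SDs. The septic TLR-deficient minus septic wildtype difference was -0.45 (SE 0.38, limma adjusted p = 0.600), and -0.87 or -0.24 without septic TLR-deficient replicate 4 or septic wildtype replicate 1. Septic wildtype minus untreated gave 0.19 (SE 0.38, adjusted p = 0.742) and septic TLR-deficient minus untreated -0.26 (SE 0.38, adjusted p = 0.99996). All 3 were smaller than the SD of the septic TLR-deficient arrays.

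The genes closest to Ccr3 over the 12 arrays, by the root mean square difference between log2 values centred on each gene's mean, were not eosinophil genes. They were Slc40a1 (0.60 log2 units), the iron exporter of red pulp macrophages, Fcer2a (0.61), the low-affinity IgE receptor of B cells, and Clec9a (0.73), a dead-cell receptor of cross-presenting dendritic cells. Cmbl (0.81), an esterase, Abcg3 (0.86), a transporter of the ABC family, Kazald1 (0.89), Cd163 (0.92), the haemoglobin scavenger receptor of macrophages, and Tcim (0.93) followed. This measure follows the size of a gene's range as well as its pattern: a gene that did not vary at all would score 1.90, and 41.0% of genes scored less. Among the other members Il5ra scored 1.49 and Epx 1.77. The remaining 6, at 1.83 to 1.96, lay near the score of a flat gene, so their pattern cannot be compared with that of Ccr3 in this way. Without septic wildtype replicate 2 the first 5 genes kept their places.

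**Figure D2:**
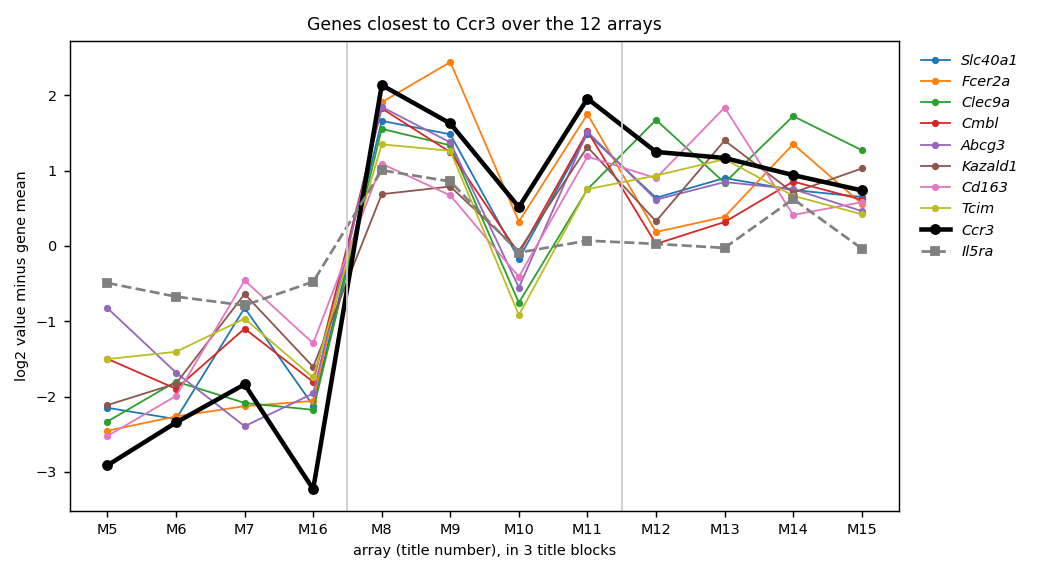
Log2 values minus each gene's mean for Ccr3 (thick black), Il5ra (dashed) and the 8 genes closest to Ccr3, over the 12 arrays ordered by title block and named by title number. All lie low on M5 to M7 and M16, and Il5ra spans 1.79 log2 units where Ccr3 spans 5.37.

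Fcer2a was at 4.99, 5.18, 5.31 and 9.35 on septic TLR-deficient, 9.88, 7.76, 9.19 and 7.63 on septic wildtype, and between 5.38 on replicate 4 and 8.79 on replicate 2 of the untreated arrays. It is low on the same 4 arrays as Ccr3. Markers of other spleen cells also differed: the 6 measured B cell markers, Fcer2a among them, averaged 7.95 to 8.30 in M5 to M7 with M16, 8.27 to 10.34 in M8 to M11 (8.27 being septic wildtype replicate 2) and 9.53 to 9.93 in M12 to M15. The 6 red pulp macrophage markers, which hold Slc40a1 and Cd163, averaged 8.29 to 8.90, 8.27 to 9.99 (9.64 to 9.99 without that array) and 8.88 to 9.33 in the same blocks. Without the genes listed above as closest to Ccr3, the other 5 B cell markers averaged 8.48 to 8.96, 8.37 to 10.44 and 9.91 to 10.16, again lower in M5 to M7 with M16 than in M12 to M15. The other 4 macrophage markers averaged 9.34 to 10.07, 8.38 to 10.13 and 8.83 to 9.14. Their average thus did not follow Ccr3, but the single genes differed. Adgre1, which encodes the macrophage antigen F4/80, was at 7.41 to 8.99 in M5 to M7 with M16 and 5.46 to 6.02 in M12 to M15. Spic was at 9.24 to 10.11 and 8.38 to 9.12, and Hmox1 at 10.28 to 11.14 and 9.93 to 10.64, in the same blocks. Vcam1 went the other way, with 9.97 to 10.80 in M5 to M7 with M16 against 11.09 to 11.58 in M12 to M15. With septic wildtype replicate 2 left out, M8 to M11 had Adgre1 at 8.66 to 9.20 and Spic at 8.64 to 9.44. Hmox1 was at 10.585 to 10.87 there and Vcam1 at 11.07 to 11.14. The part of B cells and macrophages in the Ccr3 values was not tested.

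Among the granule proteins, Epx encodes eosinophil peroxidase. Epx read 3.58, 3.57, 3.61 and 4.24 on septic TLR-deficient, 3.93, 4.66, 4.47 and 3.89 on septic wildtype, and 3.32, 3.32, 3.37 and 3.55 on untreated replicates 1 to 4. All septic wildtype arrays lie above all untreated arrays, with 3.89 against 3.55 at the nearest, and so do all septic TLR-deficient arrays, with 3.57 against 3.55. By block, Epx was at 3.55 to 3.61 in M5 to M7 with M16, 3.93 to 4.66 in M8 to M11 and 3.32 to 3.89 in M12 to M15. Every array of M8 to M11 thus exceeded all others, as in 1.18% of all genes, but by only 0.04 log2 units. This order ended after a further quantile normalization, which put septic wildtype replicate 2 at 3.79, and with arrays centred on their medians.

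Epx averaged 3.75 ± 0.33 on septic TLR-deficient, 4.24 ± 0.39 on septic wildtype and 3.39 ± 0.11 on untreated arrays (SD, n = 4 each). Its septic wildtype minus untreated difference of 0.84 (SE 0.22) was larger than the SD of either group, with an unadjusted p = 0.00224 in limma and an adjusted p = 0.439. It ranged over 0.70 to 0.96 when single arrays were left out and was 0.51 after a further quantile normalization. The septic TLR-deficient minus septic wildtype difference was -0.49 (SE 0.22, adjusted p = 0.590), and -0.35 without septic wildtype replicate 2. Septic TLR-deficient minus untreated gave 0.36 (SE 0.22, adjusted p = 0.99996), and 0.19 without septic TLR-deficient replicate 4.

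Prg2 encodes major basic protein, the core of the eosinophil granule. Prg2 read 5.90, 5.96, 7.41 and 6.50 on septic TLR-deficient, 6.33, 6.16, 7.61 and 5.78 on septic wildtype, and 5.81, 6.22, 5.68 and 5.69 on untreated replicates 1 to 4. The 2 highest arrays, septic wildtype replicate 3 and septic TLR-deficient replicate 3, stand 0.91 or more above the others and belong to different labels and different blocks. Prg2 averaged 6.44 ± 0.70, 6.47 ± 0.79 and 5.85 ± 0.25 (SD, n = 4 each) on septic TLR-deficient, septic wildtype and untreated arrays. The difference from untreated was 0.59 for septic TLR-deficient (SE 0.39, adjusted p = 0.99996) and 0.62 for septic wildtype (SE 0.39, adjusted p = 0.439), and without replicate 3 of each septic group it was 0.27 and 0.24. The septic groups differed by -0.03 (SE 0.39, adjusted p = 0.973).

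Siglecf encodes an inhibitory sialic acid-binding receptor of mouse eosinophils, also found on alveolar macrophages. Its values were 4.85, 5.38, 5.42 and 5.09 on septic TLR-deficient, 5.54, 6.44, 5.37 and 4.95 on septic wildtype, and 5.42, 4.93, 5.41 and 4.80 on untreated replicates 1 to 4. Apart from 6.44 on septic wildtype replicate 2 the arrays span 0.74 log2 units and the groups overlap. Means were 5.19 ± 0.27, 5.57 ± 0.63 and 5.14 ± 0.32 (SD, n = 4 each) on septic TLR-deficient, septic wildtype and untreated arrays. The septic wildtype minus untreated difference of 0.44 (SE 0.29, adjusted p = 0.439) was 0.15 without septic wildtype replicate 2, and septic TLR-deficient minus septic wildtype was -0.39 (SE 0.29, adjusted p = 0.591) with it and -0.10 without it. Septic TLR-deficient minus untreated gave 0.05 (SE 0.29, adjusted p = 0.99996).

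**Figure D3:**
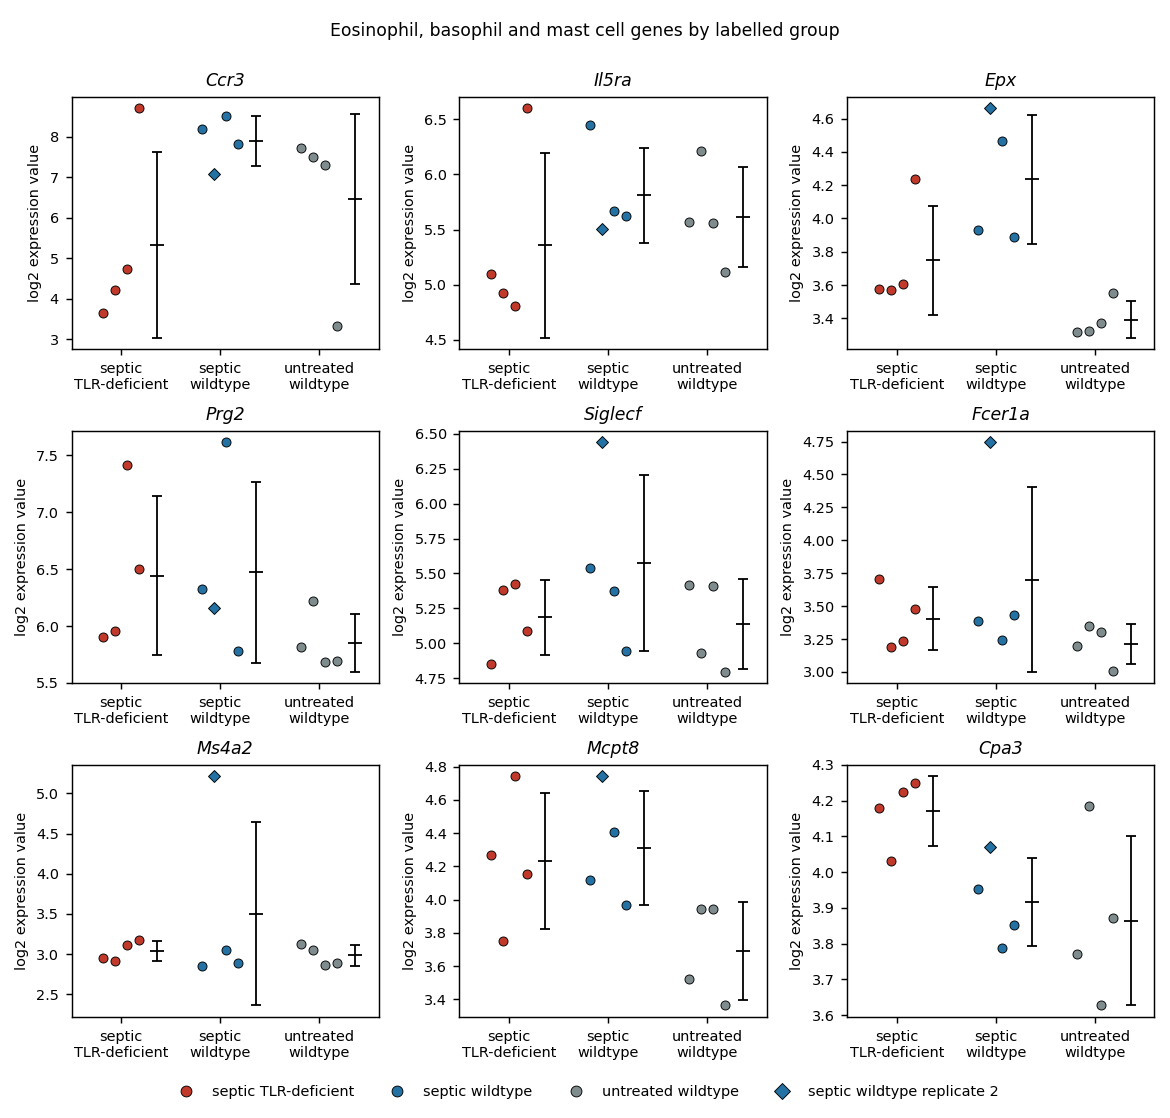
Log2 expression values of the 9 genes on the arrays of each labelled group, with mean and SD of 4 arrays beside the points and septic wildtype replicate 2 as a diamond. The vertical axes start above 0 and differ between panels. Septic wildtype replicate 2 is the highest array for Epx, Siglecf, Fcer1a and Ms4a2, at 5.22 against at most 3.17 elsewhere for Ms4a2.

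The high-affinity IgE receptor is represented by Fcer1a, its IgE-binding alpha chain, and Ms4a2, its signal-amplifying beta chain. Fcer1a read 3.71, 3.19, 3.23 and 3.48 on septic TLR-deficient, 3.39, 4.75, 3.24 and 3.43 on septic wildtype, and 3.20, 3.35, 3.30 and 3.01 on untreated replicates 1 to 4. Ms4a2 read 2.96, 2.91, 3.12 and 3.17 on septic TLR-deficient, 2.85, 5.22, 3.06 and 2.89 on septic wildtype, and 3.13, 3.05, 2.86 and 2.89 on untreated replicates 1 to 4. In both genes septic wildtype replicate 2 is the only array that departs, by 1.04 and 2.04 log2 units above the next. Without it Ms4a2 spans 0.32 log2 units, and 2.85% of all genes span less. On that array, dim genes as a whole read high, as given above for the olfactory receptors. After a further quantile normalization it was at 3.90 for Fcer1a, against at most 3.83 on the other arrays. For Ms4a2 it was at 4.69, against at most 3.30. Whether the general rise of dim genes accounts for these values was not tested.

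The septic wildtype minus untreated difference was 0.49 for Fcer1a (SE 0.29, adjusted p = 0.439) and 0.52 for Ms4a2 (SE 0.42, adjusted p = 0.461), and without septic wildtype replicate 2 it was 0.14 and -0.05. Septic TLR-deficient minus septic wildtype gave -0.30 for Fcer1a (adjusted p = 0.619) and -0.47 for Ms4a2 (adjusted p = 0.604), against 0.05 and 0.10 without that array. Against untreated, septic TLR-deficient arrays differed by 0.19 (SE 0.29) and 0.05 (SE 0.42), adjusted p = 0.99996 for both.

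Among the proteases, Mcpt8 encodes a serine protease made by mouse basophils. Its values were 4.27, 3.75, 4.74 and 4.16 on septic TLR-deficient, 4.12, 4.74, 4.41 and 3.97 on septic wildtype, and 3.52, 3.94, 3.94 and 3.36 on untreated replicates 1 to 4. The septic wildtype arrays all lie above the untreated arrays, by 0.03 at the nearest, while the septic TLR-deficient arrays overlap both groups. Mcpt8 averaged 4.23 ± 0.41, 4.31 ± 0.34 and 3.69 ± 0.30 (SD, n = 4 each) on septic TLR-deficient, septic wildtype and untreated arrays. Septic wildtype minus untreated was 0.62 (SE 0.25, unadjusted p = 0.0267, adjusted p = 0.439 in limma), and 0.29 after a further quantile normalization. Septic TLR-deficient minus untreated was 0.54 (SE 0.25, unadjusted p = 0.0487, adjusted p = 0.99996). Between the septic groups it was -0.08 (SE 0.25, adjusted p = 0.869), with the sign turned to 0.17 by that normalization.

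Cpa3 encodes carboxypeptidase A3 of mast cell granules, also made by basophils. Cpa3 read 4.18, 4.03, 4.22 and 4.25 on septic TLR-deficient, 3.95, 4.07, 3.79 and 3.85 on septic wildtype, and 3.77, 4.19, 3.63 and 3.87 on untreated replicates 1 to 4. The arrays span 0.62 log2 units, and 5.95% of all genes span less. Means were 4.17 ± 0.10, 3.92 ± 0.12 and 3.86 ± 0.24 (SD, n = 4 each) on septic TLR-deficient, septic wildtype and untreated arrays. Cpa3 was the 1 member with a positive septic TLR-deficient minus septic wildtype difference, 0.25 (SE 0.17, adjusted p = 0.590), against SDs of 0.10 and 0.12. The septic TLR-deficient minus untreated difference was 0.31 (SE 0.17, adjusted p = 0.99996) and septic wildtype minus untreated 0.05 (SE 0.17, adjusted p = 0.844).

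RMA values carry no call of presence, and probe sets differ in how brightly they report, so the following is a rough guide. The mean of Ms4a2 over the 12 arrays exceeded the means of 51.3% of the olfactory receptor genes and that of Fcer1a 63.7%. For Epx, Cpa3 and Mcpt8 the shares were 77.9%, 83.7% and 85.8%. For Siglecf, Il5ra, Prg2 and Ccr3 they were 98.7%, 99.5%, 99.8% and 99.8%. The 5 dimmest genes thus lie within the range of genes not expected in spleen, and on the 4 low arrays Ccr3 itself, at 3.33 to 4.73, lay between the olfactory receptor median of 3.15 and slightly above their 95th percentile of 4.62.

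**Figure D4:**
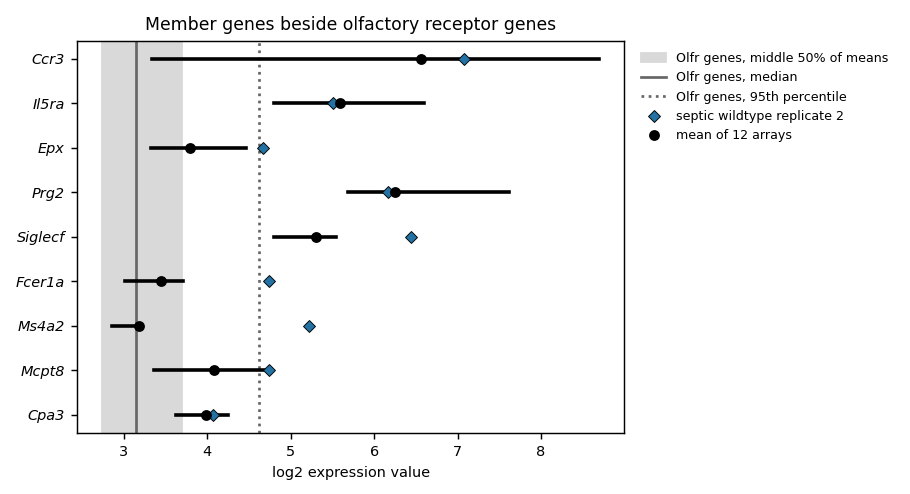
Log2 expression values of the 9 genes, with the mean of 12 arrays as a point, the range of 11 arrays as a bar and septic wildtype replicate 2 as a diamond, beside the means of 1027 olfactory receptor (Olfr) genes (grey band and lines). Ms4a2 and Fcer1a have means inside the grey band of 2.74 to 3.70, and Ccr3 spans from it to 8.70. Probe sets differ in brightness, so levels of different genes are not comparable.

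Over the comparisons as a whole, limma called none of the 8 tested members, and no gene at all passed an adjusted p under 0.05 (0% of 19938 in each). At an unadjusted p under 0.05, septic TLR-deficient against septic wildtype gave 1 of the 8 (Epx) beside 6.65% of all genes. Septic wildtype against untreated gave 2 of the 8 (Epx and Mcpt8) beside 8.81%, and septic TLR-deficient against untreated gave 1 (Mcpt8) beside 1.88%. Of the 9 members, 0 had non-overlapping septic groups, beside 1.76% of all genes lower and 2.05% higher, and 0 had either septic group wholly below untreated, beside 2.74% for septic wildtype and 0.998% for septic TLR-deficient. Epx and Mcpt8 had septic wildtype wholly above untreated, as in 3.68% of all genes, and Epx had septic TLR-deficient wholly above untreated, as in 2.4%.

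Leaving out Ccr3, the median difference of the 8 other members between septic TLR-deficient and septic wildtype was -0.34, beside -0.06 over all genes, and 7 of 8 were negative, beside 56.1% of all genes. Without septic wildtype replicate 2 the median was -0.03 and 4 of 8 were negative, beside 52.0% of all genes, since Fcer1a, Ms4a2 and Mcpt8 changed sign. For septic wildtype minus untreated the median was 0.50, beside 0.07 over all genes, and 8 of 8 were positive, beside 55.1%. Without that array it was 0.22 and 7 of 8 were positive, all but Ms4a2, beside 55.3%. Septic TLR-deficient minus untreated gave 0.25, beside 0.01 over all genes, with 7 of 8 positive, beside 51.9%. The first and the second of these comparisons share the septic wildtype arrays, so their opposite signs are not separate results. Likewise the second and the third share the untreated arrays, so their like signs are not separate results.

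Further genes of the same lineages were examined in 6 lists, of which 54 of 59 genes had a probe set of their own. Of these, 0 passed an adjusted p under 0.05 in limma in any comparison. Among eosinophil products, Alox15, a lipoxygenase that makes lipid mediators, was at 4.68, 4.71, 4.53 and 5.95 on septic TLR-deficient, 6.09, 4.68, 6.65 and 4.59 on septic wildtype, and 4.64, 4.67, 4.63 and 4.93 on untreated replicates 1 to 4. Its 3 high values all belong to M8 to M11, without septic wildtype replicate 2. On these same 3 arrays Prg3, a close relative of Prg2, was at 6.42, 6.62 and 6.66, against 5.41 to 6.30 on the other arrays, and Epx at 4.24, 3.93 and 4.47. Ear6, an eosinophil-associated ribonuclease, was highest on septic wildtype replicate 3 at 5.40, against 4.15 to 4.83 elsewhere. The rest of this list, Rnase2a and Cebpe, named after their values were seen, did not lie wholly above on the 3 arrays given for Prg3. Rnase2a was at 3.00, 3.31 and 3.70 there, against 2.97 to 4.15 on the other arrays. Cebpe was at 5.14, 5.39 and 5.82, against 4.94 to 5.64. Leaving out septic wildtype replicate 2, the M8 to M11 arrays lay wholly above all others in Ccr3 and Epx of the 9 members and in Alox15, Prg3 and Fcer2a of the 54 further genes, beside 3.32% of all genes. Of the 5 measured eosinophil products 0 had an unadjusted p under 0.05 in any label comparison.

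Among 13 growth and recruiting factors, Ccl11, the chemokine eotaxin that acts on CCR3, was at 7.21, 7.19, 7.26 and 5.15 on septic TLR-deficient, 5.46, 5.36, 5.23 and 5.44 on septic wildtype, and 5.58, 5.45, 5.70 and 7.83 on untreated replicates 1 to 4. The 4 high arrays are the 4 on which Ccr3 is low, and Ccl11 was the 1 gene of the 54 wholly above the other arrays there, beside 1.72% of all genes. Its septic TLR-deficient minus septic wildtype difference was 1.33 (SE 0.54, adjusted p = 0.590). Ccl24, another eotaxin, named after its values were seen, was at 5.41 to 6.08 in M5 to M7 with M16, 5.57 to 6.49 in M8 to M11 and 6.50 to 7.02 in M12 to M15. Il33, an alarmin that activates mast cells and basophils, ranged over 6.83 to 8.41, 5.26 to 6.80 and 6.60 to 7.37 in these blocks, and Ccl7, a further CCR3 ligand, over 6.40 to 8.13, 5.22 to 6.13 and 5.80 to 6.70.

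**Figure D5:**
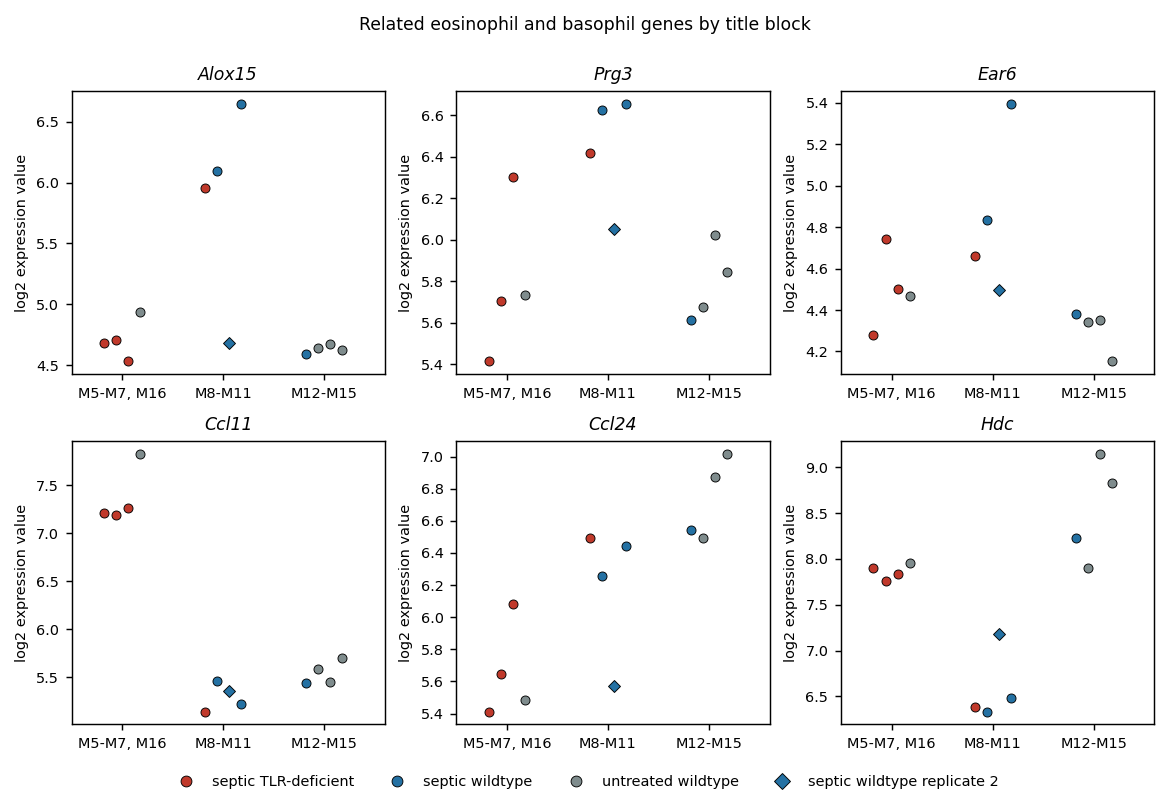
Log2 expression values of Alox15, Prg3, Ear6, Ccl11, Ccl24 and Hdc by title block, with points coloured by label and septic wildtype replicate 2 as a diamond. Ccl11 is at 7.19 to 7.83 on M5 to M7 and M16 and at 5.70 or less elsewhere, Alox15 is at 5.95 to 6.65 on 3 arrays of M8 to M11, and Hdc is at 6.34 to 7.18 on M8 to M11 against 7.76 or more elsewhere. Of all genes, 1.72% are wholly higher on M5 to M7 and M16, and 2.12% wholly lower on M8 to M11.

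Of the receptors for these factors, 8 of 9 were measured, and Csf2rb, the signalling chain shared by the interleukin-3, interleukin-5 and GM-CSF receptors, ranged over 8.06 to 8.68 in M5 to M7 with M16, 6.67 to 7.99 in M8 to M11 and 8.80 to 9.32 in M12 to M15. The 3 blocks do not overlap. Csf2rb2, the interleukin-3 receptor chain found in mice, was at 6.77 to 7.06, 6.27 to 6.92 and 7.42 to 8.09, and Il4ra, the interleukin-4 receptor chain, at 9.59 to 9.90, 6.99 to 9.29 and 9.59 to 9.89. The partner chain of Il5ra was thus lowest on M8 to M11, where Il5ra held its highest value. Its value of 6.67 there is that of septic wildtype replicate 2, and the other arrays of the block had 7.68 to 7.99. M8 to M11 lay wholly below the other arrays in 4 of the 54 further genes, Csf2rb and Il4ra among them, beside 2.12% of all genes. M12 to M15 lay wholly above in 3 of the 54, Ccl24, Csf2rb and Csf2rb2, beside 0.757% of all genes.

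In the basophil and mast cell list (12 genes), Hdc, the enzyme that makes histamine, was at 7.76 to 7.96 in M5 to M7 with M16, 6.34 to 7.18 in M8 to M11 and 7.90 to 9.15 in M12 to M15. It was thus wholly lower on M8 to M11, as in 2.12% of all genes. By label its septic wildtype minus untreated difference was -1.40 (SE 0.46, unadjusted p = 0.00907, adjusted p = 0.439 in limma). Hdc is also made by neutrophils, and the 8 neutrophil markers averaged 6.03 to 7.84, 6.35 to 7.01 and 7.24 to 8.40 in the same blocks. Their part in the Hdc values was not tested. Mcpt2 and Mrgprb2, a protease and a receptor of mast cells, spanned 0.23 and 0.34 log2 units over 11 arrays and stood at 4.63 and 4.60 on septic wildtype replicate 2, where no other array exceeded 2.74 and 2.88.

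Among IgE receptor partners (7 of 8 measured), Syk and Lat, the kinase and the scaffold downstream of FcεRI, are also used by B and T cells. Syk ranged over 8.76 to 9.33 and Lat over 7.53 to 8.91 on 11 arrays, and septic wildtype replicate 2 was lowest at 6.97 and 6.60. Of the 10 lineage transcription factors, Gata1, needed for eosinophils and for red cells, ranged over 5.43 to 6.90 with no block or label apart. Spi1, a factor of myeloid cells, ranged over 7.06 to 8.96, and Runx1, a factor of blood stem cells, over 6.57 to 8.31, both lowest on septic wildtype replicate 2.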

How the data were processed

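Spleen RNA was labelled with Affymetrix whole-transcript kits, per the labels' protocols. The deposited log2 values were made by the authors with RMA in Affymetrix Expression Console, per the submitters' processing notes, whose versions are not given. Of 35557 probe sets, 21789 carry 1 symbol. Where a gene had several, the brightest by mean value was kept, giving 19938 genes. All 12 arrays entered a single linear model of the labelled groups (limma 3.58.1, R 4.3.3), whose 3 contrasts had two-sided moderated tests with Benjamini-Hochberg adjustment over all genes at 0.05. Ccr3 was given no p-value. SE is the standard error in that fit. The number of arrays limits the precision. The members and lists were chosen with earlier results of these data known. All members were named, and per list the 3 genes with the largest range over 12 arrays. The alternatives were another scaling or centring, a filter on dim genes, the mean of probe sets, other variance models, array weights, a replicate block and leaving out arrays. The fit was tested on simulated data. Figures were drawn with matplotlib 3.10.9. Title blocks and their other scalings, added after seeing the data, were not tested as such. The fits on replicates 1 to 3, given below, compare parts of these blocks.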

Additional observations from a re-analysis of the deposited data

Results flagged for a closer look

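Ccr3 was left out here, since it was picked on these arrays. Of the 24 sets of 4 arrays (8 genes in 3 labelled groups), 5 held an array whose gap to the nearest other exceeded Dixon's 95% critical share of the group's range, which chance passes for about 1 in 20. For Il5ra, septic TLR-deficient replicate 4 was at 6.60, against 4.80 to 5.10 in its group, and septic wildtype replicate 1 at 6.45, against 5.51 to 5.66. For Epx, septic TLR-deficient replicate 4 was at 4.24, against 3.57 to 3.61. Septic wildtype replicate 2 was at 4.75 for Fcer1a, against 3.24 to 3.43 in its group, and at 5.22 for Ms4a2, against 2.85 to 3.06. Septic TLR-deficient replicate 4 lies in another title block than the rest of its label, and septic wildtype replicate 2 is the array on which dim genes as a whole read high. Whether either accounts for the flagged values was not tested.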

How the results depend on the processing

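No gene was called in any comparison when single arrays were left out (0 each) or with the replicate block, which gave 0 calls and left every difference as it was. Deviations of same-numbered arrays from their labelled group means correlated at -0.54 to 0.14. Since the title blocks cross the labels, this does not decide whether the replicate numbers pair arrays, and the labels do not say. Array weights gave 1 call for septic wildtype minus untreated. With replicates 1 to 3 of each group only, a choice made with the values known that favours calls, 141, 9 and 33 genes passed for septic TLR-deficient minus septic wildtype, septic wildtype minus untreated and septic TLR-deficient minus untreated, and without septic wildtype replicate 2 as well 1002, 19 and 675. In the last setting Il5ra passed between the septic groups (-1.11, limma adjusted p = 0.0453) and no other tested member did in any comparison. For Ccr3, septic TLR-deficient minus untreated was -3.31 in both settings. In these settings each labelled group lies within a single title block, and in the last one septic wildtype holds only replicates 1 and 3. They thus compare blocks that were proposed with these values in view, so nothing is read from these calls. The median difference of all 9 members, Ccr3 included, was -0.39, 0.52 and 0.19 with all arrays and ranged over -0.52 to -0.10, 0.30 to 0.72 and 0.12 to 0.26 in these comparisons when single arrays were left out, and the last was -0.11 with the dimmest genes left out, which drops 5 members.

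Signs of small differences turned. Between the septic groups Prg2 gave 0.0069 with centred arrays, Fcer1a 0.052 and Ms4a2 0.086 with array weights, Mcpt8 0.17 with quantile normalization and 0.025 with array weights. With replicates 1 to 3 and not septic wildtype replicate 2, Fcer1a gave 0.062 and Ms4a2 0.040. For septic wildtype minus untreated, Ms4a2 gave -0.017 with array weights and -0.061 with that reduced set, and Cpa3 -0.31 with quantile normalization. For septic TLR-deficient minus untreated, Siglecf gave -0.059 with array weights and -0.034 with either reduced set, and Ms4a2 -0.013 with quantile normalization and -0.021 with either reduced set. With single arrays left out, the differences between the septic groups ranged over -0.35 to 0.35 for Prg2, -0.45 to 0.049 for Fcer1a, -0.68 to 0.10 for Ms4a2 and -0.25 to 0.080 for Mcpt8. Septic wildtype minus untreated ranged over -0.018 to 0.40 for Il5ra, -0.050 to 0.74 for Ms4a2 and -0.026 to 0.16 for Cpa3, and septic TLR-deficient minus untreated over -0.066 to 0.16 for Siglecf. The cause was not tested. The members with M8 to M11 wholly above the other arrays numbered 0 with centred arrays, beside 0.717% of all genes. They numbered 2 without septic wildtype replicate 2 (Ccr3 and Epx), beside 3.32%, against 1 as reported (Epx), beside 1.18%. After a further quantile normalization it was 1 again, but Ccr3 in place of Epx, beside 1.70%.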

Other observations

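Markers of other spleen cell types were summarised by title block as well. The 5 measured T cell markers averaged log2 values of 7.39 to 7.69 in M5 to M7 with M16, 7.28 to 8.84 in M8 to M11 (8.64 to 8.84 without septic wildtype replicate 2) and 7.89 to 8.86 in M12 to M15. The 5 natural killer cell markers averaged 5.54 to 5.95, 5.86 to 7.24 (6.60 to 7.24 without that array) and 5.75 to 7.20 in the same blocks. The 4 erythroid markers ranged over 7.66 to 9.72, 7.76 to 9.48 and 8.85 to 9.59, and the 4 platelet and megakaryocyte markers over 7.21 to 7.99, 7.64 to 8.16 and 7.65 to 8.03. The blocks overlap in the erythroid and platelet lists. In the T cell and natural killer lists M8 to M11 overlaps both other blocks, and without septic wildtype replicate 2 it overlaps only M12 to M15.

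The members differed in which array was their highest. Ccr3, Il5ra and Cpa3 were highest on septic TLR-deficient replicate 4, Prg2 on septic wildtype replicate 3, Mcpt8 on septic TLR-deficient replicate 3, and the other 4 on septic wildtype replicate 2.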
